A study of Mus musculus with 48 samples.

Results

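Liver RNA of 8 Ppara-/- mice and 8 WT mice, all fed a high-fat diet (HFD, 60% of fat), was compared gene by gene on 1-colour Agilent arrays, with 1 array per mouse. These 16 arrays were chosen by the genotype and diet in the sample labels, out of 48 arrays in 6 groups of 8 mice. All mice were male, on a C57BL/6J background and 20 weeks old, with 12 weeks of diet according to the sample labels (the study's text gives another length), and the study's methods describe housing at thermoneutrality and killing in the fed state. The Ppara-/- mice are a germline knockout, so that their deletion is not limited to the liver. Beside them stand 8 Ppara hep-/- mice on the HFD, in which a Cre recombinase driven by the albumin promoter deletes the gene in hepatocytes and leaves it in the other cells of the liver, and 8 WT and 8 Ppara-/- mice on the control (CTRL) diet. According to the methods the WT mice were purchased and the Ppara-/- mice were bred in the laboratory, so that genotype and colony cannot be told apart in this comparison. The Ppara hep-/- mice come from a separate cross of floxed and albumin-Cre mice, so deletion and line cannot be told apart either. The RNA is that of whole liver, and hepatocyte markers had a mean log2 signal of 16.47 to 16.88 (median 16.75) in WT HFD mice and 16.23 to 16.67 (median 16.53) in Ppara-/- HFD mice, with 4 of 13 lower and 1 higher in the latter.

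PPARA is a nuclear receptor that binds fatty acids and their derivatives and, as a partner of RXR, activates genes for the uptake, activation and oxidation of fatty acids. In the liver it is best known for the fasting response, in which fatty acids from adipose tissue are oxidised to ketone bodies, and it is the target of the fibrate drugs. It also lowers the expression of inflammatory genes. The receptor pair binds a direct repeat of a half-site with a single base between the copies, whereas genes of cholesterol synthesis are driven by SREBP2 through a different element, the sterol regulatory element.

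The promoters of 3 genes of the results below are shown with the letters of these elements in capitals, to let a reader see where such letters lie. They are 250 bases before the RefSeq gene start in GRCm38.p6, read on the strand of the gene. Fabp1, a fatty acid binding protein of the hepatocyte, lies on the plus strand (chr6:71199629-71199878), Igsf23, among the genes with the largest rise in Ppara-/- mice, on the minus strand (chr7:19950744-19950993), and Hmgcs1, an early enzyme of cholesterol synthesis, on the plus strand (chr13:119690101-119690350).
Fabp1: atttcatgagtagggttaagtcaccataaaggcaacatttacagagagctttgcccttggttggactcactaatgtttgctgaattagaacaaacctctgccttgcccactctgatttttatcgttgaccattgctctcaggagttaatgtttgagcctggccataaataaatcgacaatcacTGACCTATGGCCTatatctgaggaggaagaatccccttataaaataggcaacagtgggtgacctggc
Igsf23: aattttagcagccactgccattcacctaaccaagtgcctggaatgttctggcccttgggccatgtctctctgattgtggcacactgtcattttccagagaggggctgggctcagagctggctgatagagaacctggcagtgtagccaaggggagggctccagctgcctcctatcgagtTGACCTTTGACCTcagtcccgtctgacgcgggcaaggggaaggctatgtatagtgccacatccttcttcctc
Hmgcs1: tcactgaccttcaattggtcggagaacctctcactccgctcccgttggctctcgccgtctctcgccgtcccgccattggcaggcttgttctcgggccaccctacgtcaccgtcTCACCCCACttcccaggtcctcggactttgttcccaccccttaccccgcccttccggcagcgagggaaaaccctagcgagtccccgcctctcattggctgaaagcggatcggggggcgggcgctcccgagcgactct
The direct repeat was searched on both strands as 2 copies of AGGNCA with 1 base of any kind between them. It was found in 111 of 32851 promoters (0.338%) in 2 of 99 genes of the lists of PPARA targets, namely Fabp1 and Gdf15, and in 0 of 18 cholesterol genes. These 99 and 18 are the members whose promoter was at hand, not the whole lists. In Fabp1 and Igsf23 the match lies on the strand opposite to the gene, 54 and 59 bases before the start. The sterol element, searched as TCACNCCAC on both strands, was found in 346 promoters (1.05%) and in 1 of 18 cholesterol genes (5.56%), Hmgcs1, and in 3 of the 99 PPARA targets (3.03%), Acsl1, Ehhadh and Ucp2. A match of letters is not evidence of a site in use, and Igsf23 was chosen after its value was seen.

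Before any result is given, 3 of the WT HFD mice have to be described, because they stood apart. In WT HFD mice 1, 2 and 6, 648, 1144 and 1279 probes lay at least 1 log2 unit from the group median, against 77 to 322 in the other WT HFD mice and 89 to 330 in the Ppara-/- HFD mice. WT HFD mice 1 and 2 had the highest signal of Saa1, an acute phase protein, at 18.81 in each, against 14.28 to 17 in the other 6. Their neutrophil markers had a mean log2 signal of 9.85 and 10.82, against 7.32 to 7.69, and their Cyp4a10 signal was 10.12 and 9.47, against 12.92 to 13.42. WT HFD mouse 6 had the highest signal of collagen gene Col1a1, at 12.63 against 7.53 to 10.06, and the highest macrophage and stellate cell marker levels of the WT HFD mice. The fit gave these arrays low weights (0.537, 0.343 and 0.372, against 1.02 to 1.87 in the other WT HFD mice and 0.885 to 2.36 in the Ppara-/- HFD mice), so that fitted changes and differences between the medians printed here need not be equal. Without the 3 arrays 15552 probes were called in place of 15241, and leaving them out changed the call of Ehhadh (-0.48, adjusted p = 0.00496), Cidec (-1.67, adjusted p = 0.00661) and Saa1 (1.34, adjusted p = 0.019) among the genes examined by name, described below.

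For Ppara itself the array holds 2 probes, placed on chromosome 15 in the mm9 build that the files use. The signal of the brighter probe (85632110 to 85632169) was 14.65 to 15.24 (median 15.07) in WT HFD mice and 13.83 to 14.27 (median 14.03) in Ppara-/- HFD mice. The groups did not overlap, and the change was -1.08 on the log2 scale (standard error 0.09, adjusted p = 2.77e-14 in limma). The other probe (85637193 to 85637252) changed by -1.29 (standard error 0.08, adjusted p = 1.74e-17), also without overlap. RNA of the gene was thus reduced but well above background on all 8 Ppara-/- arrays. Where the probes lie relative to the deleted part of the gene was not analysed here. The related receptors had log2 changes of -0.01 for Ppard (adjusted p = 0.968) and 0.52 for Pparg (adjusted p = 0.0527). Pparg was called without array weights (0.76, adjusted p = 0.0383), without WT HFD mouse 3 (0.68) or WT HFD mouse 6 (0.55) and without Ppara-/- HFD mouse 1 (0.56) or 7 (0.59).

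**Figure D1:**
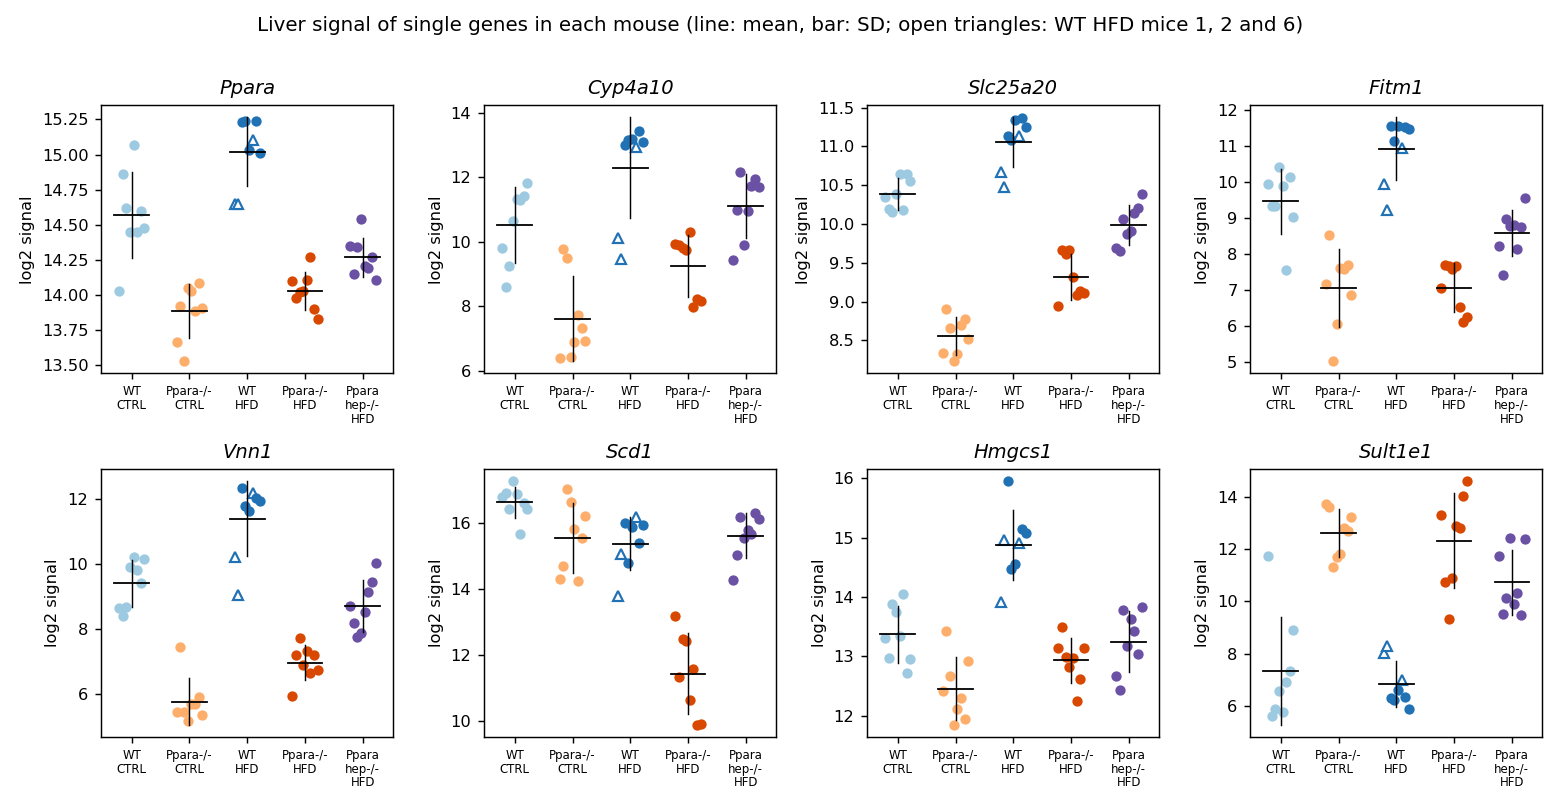
Log2 signal (y axis) of 8 genes in each mouse of 5 groups (x axis), with the group mean as a line and the SD as a bar, and with WT HFD mice 1, 2 and 6 as open triangles. On the HFD the Ppara-/- mice lie below all WT mice for Ppara, Slc25a20, Fitm1, Vnn1, Scd1 and Hmgcs1 and above them for Sult1e1, whereas for Cyp4a10 the WT HFD mice 1 and 2 reach the level of the Ppara-/- mice.

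Of 33323 probes tested, limma called 15241 (45.7%) at the 0.05 level of the adjusted p, 7251 higher (21.8%) and 7990 lower (24%) in Ppara-/- mice, and 1548 of these (4.65%) had a change of at least 1 log2 unit. In genes, each taken at its brightest probe, 5298 of 22029 (24.1%) were higher and 5222 (23.7%) were lower, 47.8% in all, with a median log2 change of -0.0198. With so many genes called, a count of called members has to be read against these shares. A stricter description is that the 8 and 8 mice did not overlap, which held for 1589 genes (7.21%), 747 higher (3.39%) and 842 lower (3.82%). With the 4 and 4 mice of the first wash batch alone 8443 probes were called, and with those of the second 13552. Of 128 genes examined by name 116 were called, and each of these 116 kept its direction within both wash batches. Many of them were named because they were called with large changes in these same arrays, so nothing is read from these counts.

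Genes of fatty acid oxidation were mostly lower in Ppara-/- mice. In the omega-hydroxylases of the Cyp4a family, which start the breakdown of fatty acids from their far end, 3 of 5 members were lower and 0 higher, with a median log2 change of -2.39. Cyp4a10 had a signal of 9.47 to 13.42 (median 13.04) in WT HFD mice and 7.96 to 10.29 (median 9.78) in Ppara-/- HFD mice. The overlap came from WT HFD mice 1 and 2 alone, and the fitted difference was 12.8-fold (log2 change -3.67, standard error 0.49, adjusted p = 4.45e-08). Within the Ppara-/- group mice 6, 7 and 8 were lower than the other 5, at 7.96, 8.22 and 8.15. Cyp4a31 followed the same course with a log2 change of -3.60, and Cyp4a14, well above background on 6 of 8 WT arrays, changed by -2.39. Sequences of this family are nearly identical in places, so that the share of each member is uncertain.

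Peroxisomal beta-oxidation, which shortens very long fatty acids, had 13 of 26 members lower and 3 higher (17 and 2 without WT HFD mice 1 and 2). Eci3, an enoyl-CoA isomerase, had 12.02 to 12.78 (median 12.55) in WT HFD mice against 10.85 to 11.42 (median 11.06) in Ppara-/- HFD mice, without overlap (log2 change -1.50, standard error 0.09, adjusted p = 1.48e-18). Abcd2, a carrier of very long-chain fatty acids into the peroxisome, was well above background on 7 of 8 WT arrays and on none (0 of 8) of the Ppara-/- arrays, and was at least 3.68-fold lower (adjusted p = 2.24e-12). Such a bound sets the bright group's mean against the mean of the dim group. Each dim value below the lowest signal that counted as above background on its array was raised to that signal. Pex11a, a protein of peroxisome division, changed by -1.44 (adjusted p = 1.92e-08). Ehhadh, the bifunctional enzyme, did not pass (-0.36, adjusted p = 0.0638), but passed without WT HFD mice 1 and 2 (-0.50, adjusted p = 0.00328), without either of these 2 mice (-0.43 and -0.44) and without Ppara-/- HFD mouse 4 (-0.39). With all mice kept, it passed with Agilent's processed signal scaled to each array's 75th percentile (-0.51, adjusted p = 0.00632). It also passed with another background correction (-0.41) and with a stricter filter on dim probes (-0.37). The thioesterase Acot3, at -0.33 (adjusted p = 0.632), reached -0.95 (adjusted p = 0.0481) without mice 1 and 2.

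In mitochondrial import and beta-oxidation, 16 of 24 members were lower and 3 higher. Slc25a20, which carries acylcarnitines across the inner membrane, had a signal of 10.48 to 11.36 (median 11.14) in WT HFD mice and 8.94 to 9.67 (median 9.22) in Ppara-/- HFD mice. The groups were separated and the change was 3.69-fold (log2 change -1.88, standard error 0.12, adjusted p = 4.03e-17). Etfdh, which passes electrons from the pathway to the respiratory chain, and Cpt2, which releases the fatty acid inside the mitochondrion, fell by 1.37 and 1.30 on the log2 scale (standard errors 0.08 and 0.09, adjusted p = 2.8e-19 and 7.66e-17), each without overlap. The 2 subunits of the trifunctional protein, Hadha and Hadhb, fell by 0.57 and 0.56. Cpt1a, the gate of the pathway, had a change of 0.24 that did not pass (adjusted p = 0.144), but passed when slides replaced wash batches as the block (0.35, adjusted p = 0.0327). A pair of acyl-CoA dehydrogenases ran the other way. Acad10 had 9.93 to 11.33 (median 11.14) in WT HFD mice and 12.37 to 12.60 (median 12.47) in Ppara-/- HFD mice, a log2 change of 1.43 (standard error 0.10, adjusted p = 1.72e-16), and Acad12 rose by 0.97, although a dimmer probe of Acad12 did not pass (0.03).

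Ketogenesis, Pdk4 and uncoupling made a group with 5 of 12 members higher and 1 lower. Oxct1, with which other tissues use ketone bodies and which hepatocytes normally lack, was 1.84-fold higher (adjusted p = 8.13e-06). Fgf21, a fasting hormone of the liver, had 6.30 to 9.69 (median 8.65) in WT HFD mice and 7.07 to 8.70 (median 7.79) in Ppara-/- HFD mice. The groups overlapped, and its change of -0.92 (standard error 0.37) passed narrowly (adjusted p = 0.0386). The call was lost in 16 settings. It did not pass without array weights (-0.54, adjusted p = 0.427), within the first or second wash batch (-0.86 and -1.14, adjusted p = 0.183 and 0.0643), without the wash batch term (-0.84), when slides replaced wash batches (-0.82), with Agilent's processed signal scaled to each array's 75th percentile (-1.04), without a filter on dim probes (-0.78) or with only the 16 arrays compared (-0.90), nor without any single 1 of Ppara-/- HFD mice 1, 2, 6 and 7 (-0.81 to -0.88) or WT HFD mice 3, 4, 7 and 8 (-0.70 to -0.93).

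Genes of fatty acid handling and storage came next. In uptake, binding and activation 8 of 21 members were lower and 5 higher. Fabp1 was lower by 0.25 on the log2 scale (adjusted p = 7.57e-05), a change of 1.19-fold. Cd36, a fatty acid transporter, was higher by 0.80 (adjusted p = 0.0149). It did not pass without WT HFD mice 1 and 2 (0.56, adjusted p = 0.0666) or within the first wash batch (0.53, adjusted p = 0.352). Among lipid droplet and lipolysis genes, 9 of 19 were lower and 3 higher. Fitm1, which packs fat into droplets, had 9.24 to 11.56 (median 11.31) in WT HFD mice and 6.12 to 7.71 (median 7.33) in Ppara-/- HFD mice. No mouse of either group reached the other, and the change was 19.5-fold (log2 change -4.28, standard error 0.31, adjusted p = 1.44e-15). Plin5, a droplet coat protein that ties droplets to mitochondria, ran from 12.74 to 13.86 (median 13.59) against 9.89 to 11.69 (median 10.95), a 6.04-fold lower signal (adjusted p = 9.13e-10). Cidea, which fuses droplets, was at 5.72 and 5.59 in WT HFD mice 1 and 2, 7.78 to 10.85 in the other 6 and 5.43 to 6.24 in Ppara-/- HFD mice (log2 change -3.62, adjusted p = 5.87e-10). Its relative Cidec missed the threshold (-1.26, adjusted p = 0.0607) and passed without WT HFD mice 1 and 2 (-1.79, adjusted p = 0.00341), and also without WT HFD mouse 1, 2 or 5 (-1.61, -1.49 and -1.46) or Ppara-/- HFD mouse 3 (-1.38). With all mice kept, Cidec passed with the processed signal (-1.34), another background correction (-1.29) and a stricter filter on dim probes (-1.30).

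Of the other known PPARA targets, 11 of 21 were lower and 4 higher. Vnn1, a pantetheinase that is a classic target of the receptor, had a signal of 9.04 to 12.35 (median 11.86) in WT HFD mice and 5.95 to 7.72 (median 7.05) in Ppara-/- HFD mice. This was a 26.0-fold difference without overlap (log2 change -4.70, standard error 0.33, adjusted p = 6.5e-16). Retsat, which saturates retinol, was 3.74-fold lower (adjusted p = 6.34e-10), and Angptl4, an inhibitor of lipoprotein lipase, changed by -0.82 (adjusted p = 0.00156). In the group of triglyceride synthesis and lipoproteins, with 9 of 30 members higher and 9 lower, 2 genes moved strongly upward. Apoa4, an apolipoprotein of lipid-rich particles, had 14.21 to 16.85 (median 15.62) against 17.74 to 18.31 (median 18.00), without overlap (log2 change 2.42, standard error 0.23, adjusted p = 1.1e-11). Lpl, lipoprotein lipase, had 8.12 to 11.48 (median 8.84) against 10.43 to 11.84 (median 11.66), with WT HFD mouse 6 alone among the Ppara-/- values (log2 change 2.60, adjusted p = 1.22e-08). Lpl is also a marker of lipid-laden macrophages. Mogat1, which makes diglycerides, was 3.92-fold lower (adjusted p = 1.05e-05).

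The target genes differed in how the hepatocyte deletion compared with the whole-body deletion. For Eci3 the log2 change against WT mice was -1.50 in Ppara hep-/- HFD mice, as it was in Ppara-/- mice, and the difference between the 2 deletions was 0.00 (standard error 0.08, adjusted p = 0.996 in limma). For Plin5 it was -0.38 in Ppara hep-/- mice (adjusted p = 0.367), and Ppara-/- mice were lower than Ppara hep-/- mice by 2.21 (adjusted p = 1.53e-08). Cyp4a10, Slc25a20, Fitm1 and Vnn1 lay between, with -1.59, -1.16, -2.71 and -2.88 in Ppara hep-/- mice, and each was lower still in Ppara-/- mice (by 2.08, 0.73, 1.57 and 1.82, all called). Acad10 was higher in Ppara-/- than in Ppara hep-/- mice by 1.24 (adjusted p = 2.36e-15).

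**Figure D2:**
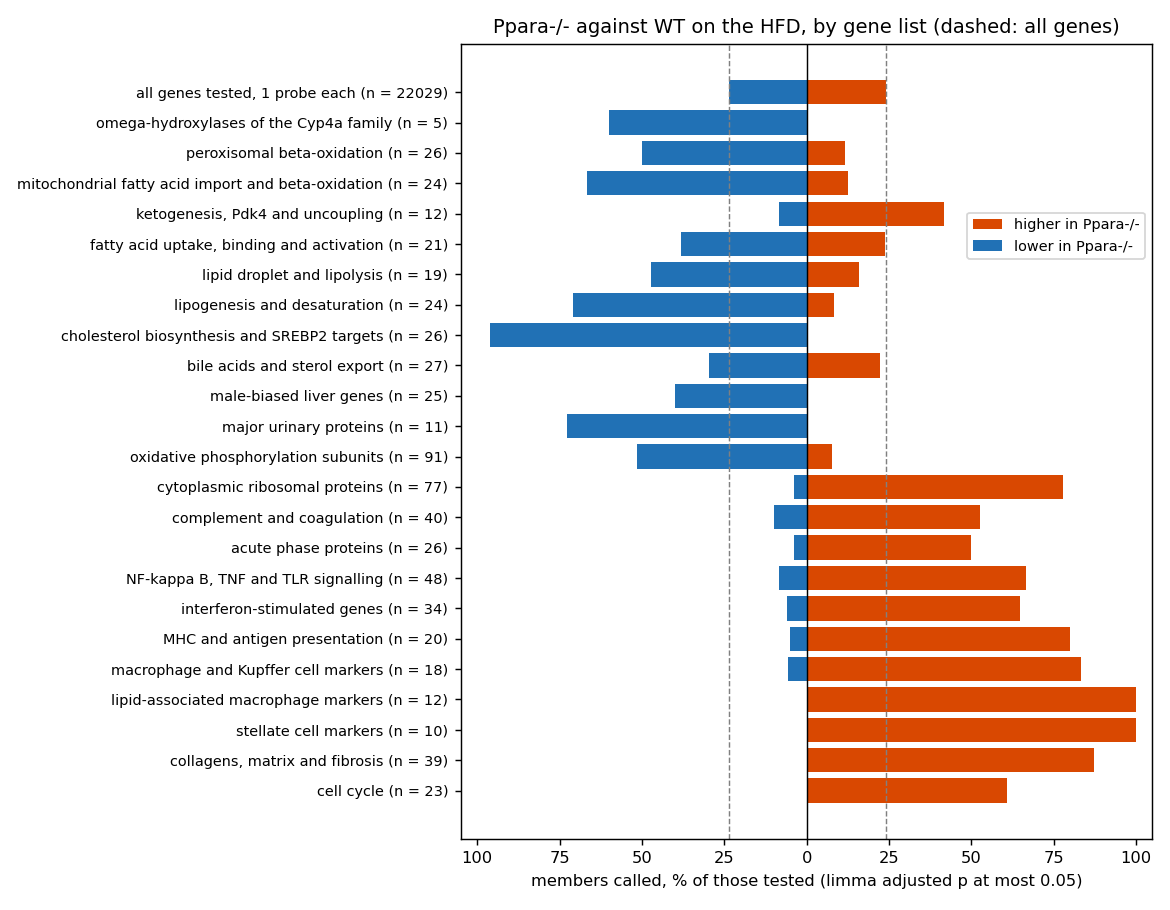
Share of the tested members of each gene list (y axis, with the number tested) that were higher (to the right) or lower (to the left) in Ppara-/- than in WT mice on the HFD (x axis, percent, limma adjusted p at most 0.05), with dashed lines at the 24.1% and 23.7% of all genes. The bar of the cholesterol genes runs to the left with 25 of 26 members, and that of the collagen and matrix genes to the right with 34 of 39.

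RNA of fatty acid synthesis genes was mostly lower in Ppara-/- mice. In lipogenesis and desaturation 17 of 24 members were lower and 2 higher, with a median log2 change of -0.75. Scd1, which makes monounsaturated fatty acids, had a signal of 13.78 to 16.17 (median 15.62) in WT HFD mice and 9.87 to 13.17 (median 11.43) in Ppara-/- HFD mice. The groups did not overlap and differed 20.0-fold (log2 change -4.32, standard error 0.38, adjusted p = 4.58e-13). This log2 change ran from -5.35 to -3.25 over the settings tried. Elovl3, an elongase, ran from 10.58 to 12.79 (median 11.74) against 7.57 to 10.53 (median 9.22), with a log2 change of -3.24 (adjusted p = 5.25e-10). Me1, malic enzyme, which supplies NADPH, was 8.23-fold lower (adjusted p = 3.23e-09). The core enzymes Acly, Fasn and Elovl6 had smaller changes of -1.37, -1.48 and -1.56, and Srebf1, the transcription factor of the pathway, of -0.99 (adjusted p = 1.56e-05). The 2 members that were higher were Scd2 (0.94), which did not pass without array weights (0.84, adjusted p = 0.0576), and G6pdx (0.87).

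The same list differed between the 2 deletions. Ppara hep-/- mice shared the WT HFD arrays as their reference, so their values are set beside those above and the difference is taken from Ppara-/- against Ppara hep-/- mice, where 31.9% of all genes were called (16.9% higher and 15% lower; 30.6% of probes). In that comparison 18 of 24 members were lower in Ppara-/- mice and 1 was higher. In Ppara hep-/- against WT mice 7 of 24 were lower and 3 higher, and Elovl3 (-1.01, adjusted p = 0.0352) and Me1 (-0.98, adjusted p = 0.0428) were among the lower ones. Scd1 had a log2 change of 0.08 in Ppara hep-/- against WT mice (adjusted p = 0.90), and was lower by 4.41 in Ppara-/- than in Ppara hep-/- mice (adjusted p = 4.35e-14). Fasn, Acly and Elovl6 had -0.13, -0.21 and -0.07 in Ppara hep-/- mice, none of which passed, and were lower in Ppara-/- than in Ppara hep-/- mice by 1.35, 1.16 and 1.48 (adjusted p = 0.000397, 0.000187 and 1.24e-05). Some changes differed between the diets. Against WT mice on the CTRL diet Scd1 changed by -1.40 and Elovl3 by -0.03 in Ppara-/- mice, and the change on the HFD exceeded these by -2.92 and -3.22 log2 units, both called.

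RNA of nearly every gene of cholesterol synthesis that was measured was lower. Of 26 genes of the pathway and of SREBP2 targets, 25 were lower in Ppara-/- HFD mice and 0 higher, with a median log2 change of -1.08. Hmgcs1 had a signal of 13.92 to 15.95 (median 14.94) in WT HFD mice and 12.25 to 13.50 (median 12.98) in Ppara-/- HFD mice, 4.15-fold lower without overlap (log2 change -2.05, standard error 0.27, adjusted p = 2.58e-08). Fdps, which makes farnesyl diphosphate, ran from 14.81 to 16.03 (median 15.31) against 13.13 to 14.41 (median 13.39), a change of -1.95 (adjusted p = 2.09e-07). Sc5d, a sterol desaturase near the end of the pathway, had 14.64 to 15.48 (median 15.11) against 12.28 to 13.13 (median 12.78), with a change of -2.41 (standard error 0.14, adjusted p = 2.08e-19). The gene that was not called was Insig2 (0.12, adjusted p = 0.654).

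This list did not separate the deletions in the way that lipogenesis did. In Ppara hep-/- against WT mice on the HFD, where 28.6% of all genes were called (14.6% higher and 14% lower), 23 of 26 members were lower and 1 higher, with a median of -1.09. Ppara-/- against Ppara hep-/- mice gave 5 members lower and 3 higher. Hmgcs1 was at -1.65 in Ppara hep-/- mice, and its difference between the deletions, of -0.41, did not pass (adjusted p = 0.236). Sc5d was an exception, at -0.69 in Ppara hep-/- mice and lower by 1.72 in Ppara-/- mice (adjusted p = 2.91e-15). On the CTRL diet, where 35.3% of all genes were called in Ppara-/- against WT mice (16.9% higher and 18.4% lower), 10 of 26 members were lower and 2 higher. The difference between the diets was called for 7 members, all lower on the HFD (of all genes, 7.75% were called upward and 7.77% downward, 15.5% in all, and 14.3% of probes). Msmo1 was among them, at 0.80 on the CTRL diet and -0.87 on the HFD.

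**Figure D3:**
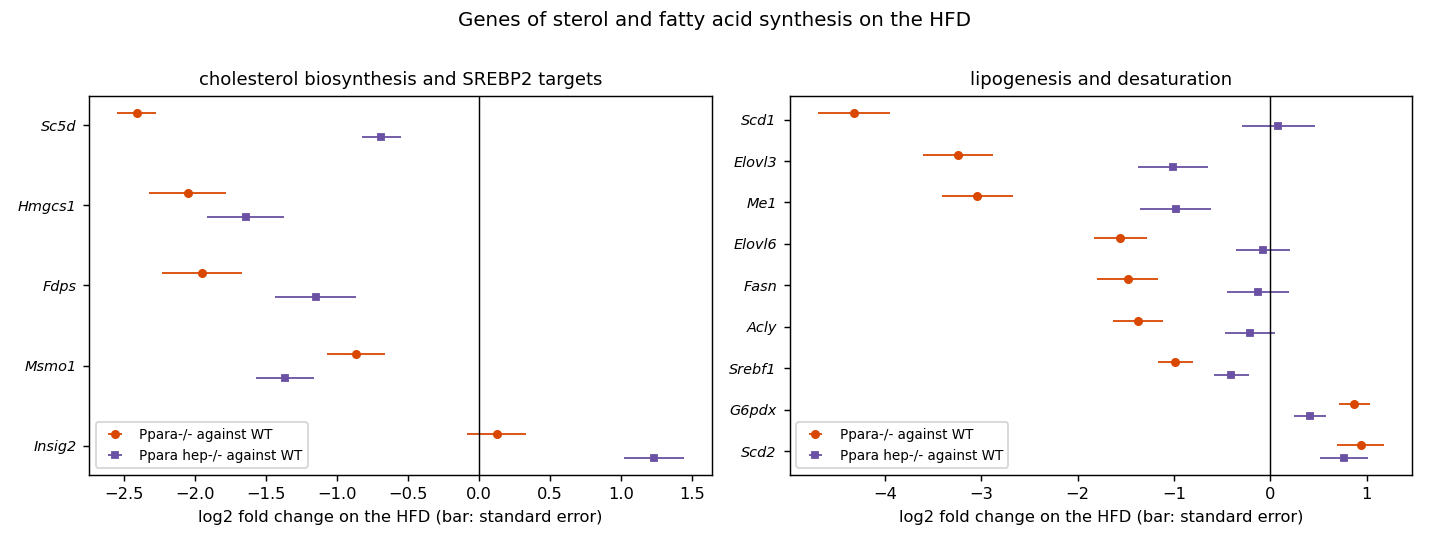
Log2 fold change against WT mice on the HFD (x axis, with the standard error as a bar) for the genes named in the text (y axis) of cholesterol synthesis on the left and of lipogenesis on the right, for Ppara-/- mice as circles and Ppara hep-/- mice as squares, which share the WT arrays. On the left the circles and squares of Sc5d, Hmgcs1, Fdps and Msmo1 lie below 0 and the square of Insig2 above it, while on the right Scd1 stands at -4.32 for Ppara-/- and at 0.08 for Ppara hep-/- mice.

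Of bile acid genes 8 of 27 members were lower and 6 higher, close to the 23.7% and 24.1% of all genes. Cyp8b1, which sets the make-up of the bile acids, had 9.55 to 12.55 (median 12.02) in WT HFD mice and 9.09 to 11.48 (median 10.37) in Ppara-/- HFD mice. The groups overlapped, with a log2 change of -1.65 (standard error 0.31, adjusted p = 2.67e-05), whereas it was 0.90 on the CTRL diet, a called difference of -2.55. Cyp27a1, of the alternative pathway, fell by 1.18 and the bile salt export pump Abcb11 by 0.88 on the log2 scale. Slco1a4, an uptake carrier of the basal membrane, rose from 7.67 to 10.46 (median 9.26) to 10.53 to 11.98 (median 11.21), without overlap (4.16-fold, adjusted p = 6.38e-10). Cyp7a1, the rate-limiting enzyme of bile acid synthesis, had -0.69 (adjusted p = 0.135). It passed without Ppara-/- HFD mouse 7 (-0.97, adjusted p = 0.046) and within the first wash batch (-1.77, adjusted p = 0.0264), but was 0.13 within the second (adjusted p = 0.827). A dim second probe passed (-0.37).

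Conjugation enzymes were more often higher, with 18 of 38 members higher and 4 lower. Sult1e1, oestrogen sulfotransferase, was among them. Its signal was 5.90 to 8.31 (median 6.49) in WT HFD mice and 9.34 to 14.60 (median 12.86) in Ppara-/- HFD mice. Every Ppara-/- mouse lay above every WT mouse, and the groups differed 65.1-fold (log2 change 6.03, standard error 0.62, adjusted p = 5.23e-11). Over the settings tried the log2 change ran from 4.05 to 7.58. It was 5.31 on the CTRL diet and 4.19 in Ppara hep-/- HFD mice.

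Among drug-metabolising P450s and their receptors 12 of 38 members were higher and 11 lower. Cyp2b9 and Cyp2b10, the latter the standard target of the receptor CAR, were lower. Cyp2b9 had a signal of 5.35 and 4.84 in WT HFD mice 1 and 2, 9.44 to 14.80 in the other 6 and 4.91 to 5.60 in Ppara-/- HFD mice, with 6 WT arrays and 1 Ppara-/- array well above background. For Cyp2b10 these were 6 and 5 arrays. The fitted change, whose size rests on Ppara-/- values near background, was -5.42 (standard error 0.61, adjusted p = 6.58e-10), and that of Cyp2b10 was -4.45 (adjusted p = 2.98e-08). On the CTRL diet their changes were 0.01 and 0.18, neither called. In Ppara-/- HFD mice they were also lower than in Ppara hep-/- HFD mice (adjusted p = 4.23e-14 and 2.07e-12). Nr1i3, the gene of CAR itself, was 1.72-fold higher (adjusted p = 2.13e-05). Cyp3a11, the main target of PXR, was lower by 1.69 (adjusted p = 0.000996), and not called without array weights (-1.0, adjusted p = 0.226). Cyp2c39 was well above background on all 8 Ppara-/- arrays (7.79 to 8.94) and on 0 of 8 WT arrays (4.80 to 5.72), at least 7.75-fold higher (adjusted p = 2.48e-24). Cyp2b sequences are close to each other, as are those of Cyp2c, and their members' shares are uncertain.

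Genes with a sex difference in mouse liver were examined because all mice were male. Of 25 male-biased genes 10 were lower and 0 higher (6 lower without WT HFD mouse 8 or without array weights, 3 within the first wash batch). Of 22 female-biased genes 9 were higher and 7 lower. Among 11 major urinary proteins, pheromone carriers made by the male liver, 8 were lower and 0 higher (5 without array weights). Mup6 had 15.62 to 16.41 (median 16.19) in WT HFD mice and 11.46 to 13.40 (median 12.65) in Ppara-/- HFD mice, without overlap (log2 change -3.57, standard error 0.16, adjusted p = 9.29e-23). In Ppara hep-/- HFD mice it was at -0.01 and in Ppara-/- CTRL mice at -2.28. Mup20, the pheromone darcin, had -1.91 (adjusted p = 2.54e-18) and 0.06 in Ppara hep-/- mice. Mup11, by contrast, was at -1.95 and -2.51. Other probes of Mup6 and Mup20 changed by -1.60 and -0.63, both called. The genes of this cluster are nearly identical, and the values of single members are uncertain. In Ppara hep-/- against WT mice on the HFD, 14 of 25 male-biased genes were lower and 0 higher, beside 14% and 14.6% of all genes. Of the major urinary proteins 6 of 11 were lower and 0 higher there. Between the 2 deletions 5 male-biased genes were higher and 5 lower in Ppara-/- mice. For the urinary proteins these were 2 and 3.

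Inflammatory genes were higher in Ppara-/- HFD mice. Of 48 genes of signalling through NF-kappa B, TLR and TNF, 32 were higher and 4 lower, with a median log2 change of 0.71. Ccl2, which attracts monocytes, had 7.02 to 11.04 (median 8.07) in WT HFD mice and 9.57 to 11.70 (median 11.21) in Ppara-/- HFD mice (log2 change 2.62, standard error 0.39, adjusted p = 4.1e-07). Tlr2, a receptor for bacterial lipoproteins, ran from 7.60 to 9.87 (median 8.43) against 9.43 to 11.47 (median 10.56), a 4.80-fold rise (adjusted p = 6.69e-10). WT HFD mouse 6 reached the range of the Ppara-/- mice in both genes, and WT HFD mouse 2 in Tlr2. Cd14, its co-receptor, rose by 1.95 and Il1b by 1.39. Tnf was read in opposite directions by its 2 probes, at -1.13 and 0.78, both called, so that no direction is given. The changes of Tlr2 and Il1b on the HFD exceeded those on the CTRL diet by 1.36 and 1.19, both called. Interferon-stimulated genes had 22 of 34 members higher and 2 lower, against 3 higher and 6 lower on the CTRL diet, with 12 called as different between the diets, all upward. MHC and antigen presentation had 16 of 20 higher and 1 lower, among them Cd74 (1.52) and H2-Aa (1.62).

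The count of acute phase proteins moved with WT HFD mice 1 and 2. Of 26 members 13 were higher and 1 lower, but 20 were higher without these mice, 5 without array weights, and 8 higher and 3 lower when Agilent's processed signal, with each array scaled to its 75th percentile, was taken instead of the quantile-normalised median intensity, an alternative that changes signal and scaling together. Lcn2, lipocalin 2, had 17.30 and 17.63 in WT HFD mice 1 and 2, 11.06 to 15.07 in the other 6 and 15.37 to 16.90 in Ppara-/- HFD mice (log2 change 3.49, standard error 0.61, adjusted p = 6.77e-06). Without weights its change was 2.29, still called. Saa1 did not pass (0.89, adjusted p = 0.143) and passed without mice 1 and 2 (1.22, adjusted p = 0.0311). Of complement and coagulation genes 21 of 40 were higher and 4 lower, but 6 higher and 11 lower with the processed signal, so that this group has no settled direction. Mbl2, a lectin of complement, was lower with either signal, from 16.09 to 16.73 (median 16.55) to 14.27 to 15.61 (median 14.98) and without overlap (log2 change -1.50, adjusted p = 1.09e-12).

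Markers of several other liver cell types moved with the inflammatory and matrix genes, and in whole liver more cells of a type and more RNA per cell cannot be told apart. Of 18 macrophage and Kupffer cell markers 15 were higher and 1 lower, with a mean log2 signal of 9.43 to 11.43 (median 10.33) in WT HFD mice and 10.89 to 11.61 (median 11.37) in Ppara-/- HFD mice. Adgre1, the gene of F4/80, had 8.46 to 11.03 (median 9.54) against 10.57 to 11.79 (median 11.22), a 3.36-fold rise (adjusted p = 5.41e-09). The member that fell was Cd163, a haemoglobin scavenger receptor, by 1.69 (adjusted p = 0.000454). It did not pass within the first wash batch (-1.26, adjusted p = 0.131). All 12 markers of lipid-associated macrophages were higher. Their mean log2 signal was 8.82 to 11.28 (median 9.33) in WT HFD mice and 10.01 to 11.24 (median 11.02) in Ppara-/- HFD mice. WT HFD mouse 6, at 11.28, lay above every Ppara-/- HFD mouse. In Ppara hep-/- against WT mice 10 of these 12 were higher and 0 lower, and between the 2 deletions 1 was higher in Ppara-/- mice and 0 lower. Gpnmb, well above background on 3 of 8 WT arrays and all 8 Ppara-/- arrays, had a fitted log2 change of 3.27 (adjusted p = 4.24e-06). Mmp12, a macrophage elastase that was measured on 3 of 8 WT arrays, had 2.13. The sizes of both rest on WT values near background, and over the settings tried they ran from 2.73 to 4.77 and from 1.65 to 3.47. Neutrophil markers had 7 of 11 members higher and 1 lower, but 0 higher and 1 lower without array weights. T, NK and B cell markers had 7 of 14 higher, and 3 to 4 when Ppara-/- HFD mouse 5 or WT HFD mouse 3 or 8 was left out. Of 12 sinusoidal endothelial cell markers 8 were higher and 1 lower, and of 8 bile duct cell markers 1 was higher and 0 lower. The part of cell numbers in the inflammatory results was not tested.

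**Figure D4:**
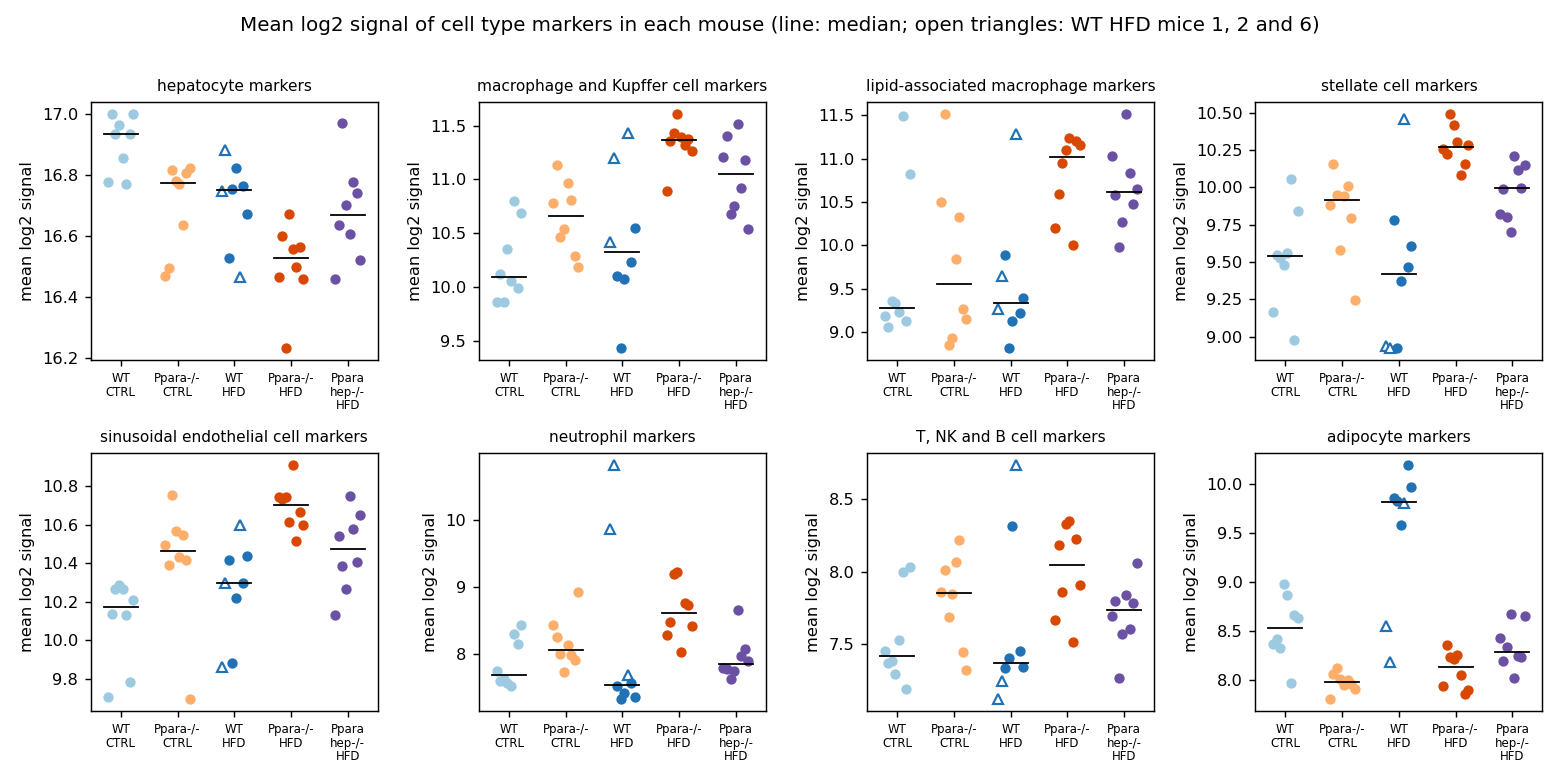
Mean log2 signal of 8 lists of cell type markers (y axis) in each mouse of 5 groups (x axis), with the group median as a line and WT HFD mice 1, 2 and 6 as open triangles. The Ppara-/- HFD mice lie high for macrophage and stellate cell markers, WT HFD mice 1 and 2 hold the highest neutrophil marker levels (9.85 and 10.82), and WT HFD mouse 6 the highest stellate cell level of its group (10.46).

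Matrix genes rose together with the markers of stellate cells, the cells that make collagen in the liver. Of 39 genes of collagens, matrix and fibrosis 34 were higher and 0 lower, with a median log2 change of 0.98. Without array weights 21 were higher and 0 lower. Col1a1 had 7.53 to 12.63 (median 8.63) in WT HFD mice and 9.16 to 11.78 (median 10.46) in Ppara-/- HFD mice, and the groups overlapped through WT HFD mice 3 and 6. Its change of 1.52 (standard error 0.49, adjusted p = 0.0101) did not pass without array weights (1.30, adjusted p = 0.136) or within the second wash batch (0.89, adjusted p = 0.123), whereas it was 2.35 within the first. Col1a2, Col3a1 and Timp1, an inhibitor of matrix proteases, had 1.47, 1.29 and 0.89, and none of the 3 passed without weights. Col3a1 did not pass within the second wash batch (0.78, adjusted p = 0.119), nor Timp1 within the first (0.85, adjusted p = 0.0609). The 2 dimmer probes of Col3a1 did not pass. All 10 stellate cell markers were higher, with a mean log2 signal of 8.92 to 10.46 (median 9.42) in WT HFD mice and 10.09 to 10.49 (median 10.27) in Ppara-/- HFD mice. In Ppara hep-/- against WT mice 32 of 39 matrix genes were higher, and between the 2 deletions 5 were higher and 5 lower in Ppara-/- mice.

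Adipocyte markers ran the other way, with 5 of 6 members lower in Ppara-/- HFD mice, but Cfd had by far the largest change. Of the other called members, Retn and Adig changed by -0.25 and -0.38, and Lipe and Acsl1 by -0.76 and -0.77. Acsl1 is also in the list of fatty acid activation and had a mean log2 signal of 16.05 in WT HFD mice. Cfd, adipsin, was at 7.49 and 5.74 in WT HFD mice 1 and 2, at 13.90 to 15.51 in the other 6 and at 5.29 to 7.46 in Ppara-/- HFD mice, with 7 WT and 4 Ppara-/- arrays well above background. The fitted change of -7.87 (standard error 0.63, adjusted p = 2.79e-14) had a size that rests on Ppara-/- values near background (-9.31 to -6.51 over the settings tried), and it was -2.73 on the CTRL diet and -6.93 in Ppara hep-/- HFD mice. Lep, an adipocyte hormone, had -0.07 (adjusted p = 0.46). The mean log2 signal of the 6 markers was 8.18 to 10.20 in WT HFD mice and 7.85 to 8.35 in Ppara-/- HFD mice. Cfd is part of this mean, so no change of the list as a whole is read from it. Cidea, described above, was also low in WT HFD mice 1 and 2 and high in the other 6.

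Housekeeping lists shifted by small amounts that depended on the signal and scaling used. Of 77 cytoplasmic ribosomal proteins 60 were higher and 3 lower in Ppara-/- HFD mice (median log2 change 0.19), but with the processed signal scaled to the 75th percentile 12 were higher and 9 lower (median 0.01). Of 91 oxidative phosphorylation subunits 47 were lower and 7 higher (median -0.12), and 74 and 3 with that alternative (median -0.28). The change of the ribosomal proteins differed between the diets, with 66 of 77 higher on the HFD than on the CTRL diet, which fell to 10 with the processed signal. Cox7a1, a subunit of cytochrome oxidase typical of muscle and brown fat, stood out with 9.03 to 10.65 (median 9.80) against 8.40 to 8.90 (median 8.72) and a log2 change of -1.18 (adjusted p = 2.64e-09).

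The genes with the largest changes are given beside their values on the CTRL diet and in the hepatocyte deletion. Gdpd3, a lysophospholipase, had 5.55 to 5.73 (median 5.63) in WT HFD mice, where 1 of 8 arrays was well above background, and 11.14 to 12.42 (median 11.96) in Ppara-/- HFD mice. The fitted log2 change was 6.36 (standard error 0.27, adjusted p = 4.73e-24), its size resting on WT values near background, with 5.99 on the CTRL diet and 4.87 in Ppara hep-/- HFD mice. Meg3, a long noncoding RNA of an imprinted region, ran from 7.09 to 8.53 (median 7.59) against 10.78 to 13.26 (median 12.13), a 24.0-fold rise, and was at 1.99 in Ppara hep-/- mice. Igsf23, whose promoter is shown above, had 5.80 to 6.94 (median 6.11) against 10.30 to 11.19 (median 10.68), a change of 4.49 (standard error 0.17, adjusted p = 6.6e-26). It was 3.87 on the CTRL diet and 0.83 in Ppara hep-/- mice. Downward, Serinc2 was 15.1-fold lower, with -2.90 in Ppara hep-/- mice, and Raet1e, a ligand of the NK cell receptor NKG2D, was 14.2-fold lower, with -2.35.

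Several of the largest changes were not called, smaller or of opposite sign in the hepatocyte deletion. Trim12a, a TRIM family gene, had 10.07 to 10.82 (median 10.29) in WT HFD mice and 4.61 to 5.16 (median 4.96) in Ppara-/- HFD mice, where 0 of 8 arrays were well above background. It was at least 28.7-fold lower (adjusted p = 5.62e-39), with a log2 change of 0.31 in Ppara hep-/- mice. Sugct, a mitochondrial CoA transferase, had a median of 10.82 and a highest value of 11.16 in WT HFD mice against 6.0 to 6.32 in Ppara-/- HFD mice, without overlap and with a change of -4.71 (standard error 0.09, adjusted p = 1.76e-36), and -0.49 in Ppara hep-/- mice, a smaller fall that was also called (adjusted p = 0.000127). Upward, the ion channel gene Asic5 had 9.30 to 10.24 (median 9.83) against 12.64 to 13.58 (median 13.20), a change of 3.23 (adjusted p = 2.25e-23), and -0.15 in Ppara hep-/- mice. The noncoding 4930435C17Rik was at least 12.4-fold higher, with 0.10 in Ppara hep-/- mice. Camk2b, a calmodulin kinase subunit, was at least 16.5-fold lower, with 1.05 in Ppara hep-/- mice. On the CTRL diet the log2 changes of Sugct and Asic5 in Ppara-/- mice were -4.12 and 3.81. In each of these 5 genes Ppara-/- differed from Ppara hep-/- mice on the HFD (adjusted p of 3.85e-22 or less). They were picked for small or opposite changes in the hepatocyte deletion, so nothing further is read from these p-values.

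For Rbm24 and Calml4 the change was larger on the HFD. Rbm24, an RNA-binding protein, was well above background on 0 of 8 WT arrays and on all 8 Ppara-/- arrays (8.16 to 9.08), at least 8.35-fold higher (adjusted p = 5.6e-19). On the CTRL diet its change was -0.01, with 2 WT arrays and 1 Ppara-/- array well above background, and the difference between the diets of 3.64 was called. Calml4, a calmodulin-like gene, had 6.59 to 7.33 (median 6.78) against 9.72 to 11.74 (median 10.61), a change of 3.98 on the HFD and 1.25 on the CTRL diet.

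Dct, dopachrome tautomerase, was at 5.07 to 5.86 in 7 Ppara-/- HFD mice and at 12.24 in mouse 1, against 10.35 to 11.68 in WT HFD mice (log2 change -5.19, adjusted p = 1.03e-06), with 2 of 8 Ppara-/- arrays well above background, so that the size is not exact (-7.28 to -4.54 over the settings tried). On the CTRL diet its change was -3.41, and the difference between the diets was not called (adjusted p = 0.353). A dim second probe of Dct did not pass (0.02).

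**Figure D5:**
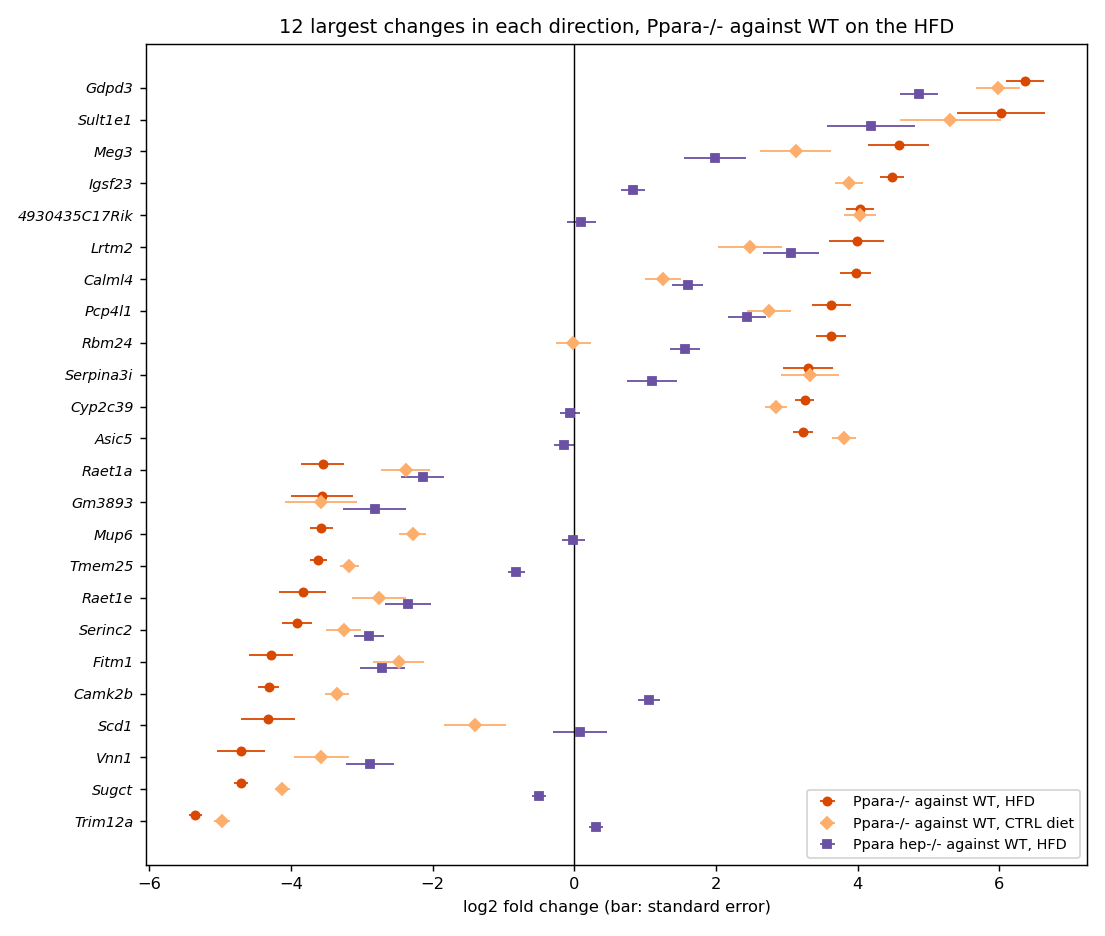
Log2 fold change (x axis, with the standard error as a bar) of the 12 called genes that rose most and the 12 that fell most among those whose mice did not overlap (y axis), for Ppara-/- against WT mice on the HFD (circles) and on the CTRL diet (diamonds) and for Ppara hep-/- against WT mice on the HFD (squares). The squares of Trim12a, Sugct and Asic5 lie at 0.31, -0.49 and -0.15, the diamonds of Sugct and Asic5 at -4.12 and 3.81, and that of Rbm24 at -0.01. Values of a group not above background, as in Trim12a, are fitted and give no exact size.

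Because the 2 groups come from separate colonies, the position of the changed probes was counted. Within 5 Mb of Ppara 22 of 245 probes had groups that did not overlap (8.98%), against 5.67% between 5 and 20 Mb, 5.29% farther on chromosome 15 and 6.93% of all probes. Chromosomes 9 (11%) and 7 (10.5%) had the highest shares. In windows of 5 Mb the share had a median of 5.585% over 448 windows, and the highest was 16 of 37 probes (43.2%) on chromosome 14 from 5 Mb. The part of colony differences in these counts was not tested.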

How the data were processed

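RNA of whole liver was labelled in 1 colour and hybridised to Agilent arrays, 1 mouse per array, on 6 slides scanned on 1 day after washing in 2 batches, each holding 4 Ppara-/- HFD and 4 WT HFD mice. The deposited scanner files, written by Agilent Feature Extraction 10.10.1.1 with mm9 positions, give spot intensity, and a deposited table gives log2 values made by the authors, used here only as an alternative. In the present work the log2 of the median intensity was taken, outlier spots were left out, spots were averaged per probe, a probe was kept if any group had it well above background in 4 or more of its 8 mice, and the 48 arrays were quantile normalised. The 195 missing values left a probe fitted on its other arrays.

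Groups were compared with limma 3.58.1 in R 4.3.3 (group and wash batch as terms, array weights, empirical Bayes, Benjamini-Hochberg adjustment over 33323 probes within each comparison, threshold 0.05). A gene was taken at its probe with the highest mean signal. The named genes are Ppara, the 12 largest changes in each direction among called genes without overlap, key members and the 2 largest changes in each direction of each list, the 5 largest differences in each direction between diets and between deletions, and genes the study names in liver. A few of these genes are not reported here. The members of the 44 lists were chosen with earlier results of these data known. Per array, 31780 to 36437 of 59305 spots were well above background in the 2 groups, and none was saturated. The number of mice limits the precision. The fit was tested on simulated data. Alternatives covered scaling, background, filter, weights, wash batch, slide, pairing and single mice.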

Additional observations from a re-analysis of the deposited data

Results flagged for a closer look

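In 278 groups of 7 or 8 mice, each gene or marker list taken in Ppara-/- HFD and in WT HFD mice, 16 held a mouse far from the others, by a gap to its nearest neighbour that made up an unusual part of the group's range. Chance alone gives about 5% of such groups. WT HFD mouse 6 accounted for 9 of them, with a gap over range of 0.6 for Oxct1, 0.686 for Lpl, 0.551 for Scd2, 0.686 for Cyp27a1, 0.565 for H2-Aa, 0.587 for Col1a2, 0.579 for Timp1, 0.644 for Trim12a and 0.563 for the lipid-associated macrophage markers. WT HFD mouse 2 stood apart for Eci3 (0.563), Hadha (0.527) and Calml4 (0.58). In Ppara-/- HFD mice the gap over range was 0.707 for Ppard in mouse 6, 0.576 for Etfdh in mouse 5, and 0.545 for Tmem25 and 0.89 for Dct in mouse 1.

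For 38 of the 116 called genes the change in Ppara-/- mice differed between the diets by an interaction term in limma, against 15.5% of all genes. These genes were partly chosen for large differences between the diets, so nothing is read from this count. Values are the log2 change on the HFD minus that on the CTRL diet. Among genes of fatty acid handling the difference was -0.43 for the brighter probe of Ppara (-0.18 for the other, not called, adjusted p = 0.35), -1.96 for Cyp4a14, -0.44 for Cpt1b, -1.81 for Fitm1, -2.48 for Cidea, -2.21 for Mogat1, -0.64 for Slc27a1, -1.06 for Retsat and 2.69 for Lpl. Fgf21 had 2.65, with a log2 change of -3.57 on the CTRL diet and -0.92 on the HFD. In lipid synthesis and bile acids the difference was -2.92 for Scd1, -3.22 for Elovl3, 1.41 for G6pdx, -1.66 for Msmo1, -2.55 for Cyp8b1 and -0.75 for Cyp27a1.

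In drug metabolism the difference was -5.43 for Cyp2b9, -4.63 for Cyp2b10, -0.80 for Nr1i3 and -3.36 for Sult2a7, which changed by 4.29 on the CTRL diet and 0.92 on the HFD, a call that was lost in 19 settings, among them without array weights (0.96, adjusted p = 0.169). Among urinary proteins it was -1.29 for Mup6, -0.94 for Mup20, -1.03 for Mup3 and -2.06 for Mup11. Inflammatory genes gave 1.36 for Tlr2, 1.19 for Il1b and -0.59 for Mbl2, and ribosomal proteins 0.62 for Rps12, 0.58 for Rpl12 and 0.24 for Rps13. Of the genes with the largest changes, Calml4 had 2.73, Rbm24 3.64, Sugct -0.59, Camk2b -0.97 and Cfd -5.14. For Rbm24 and Camk2b 1 HFD group was not above background, and for Cyp2b9 1 of 8 Ppara-/- HFD arrays was, so these sizes are not exact. The difference was 2.73 for Spink1, 2.79 for Tuba8 and -2.07 for Cdkn1a.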

How the results depend on the processing

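With the processed signal scaled to each array's 75th percentile, which changes signal and scaling together, 3362 probes had a called change of at least 1 log2 unit in place of 1548, the share of calls that were higher was 38.0% in place of 47.6% (34.5% in place of 48.3% for the difference between diets), and C3 reversed to -0.09. The 15241 calls became 10565 without array weights, 12856 without the wash batch term and 13189 without a filter on dim probes. Within the first wash batch 8443 probes were called, 4088 higher and 4355 lower. The difference between diets was called for 4781 probes, and for 2528 without a filter on dim probes, 1740 without array weights, 3099 without the wash batch term, and 1278 and 892 within the first and second wash batch. Ppara-/- against Ppara hep-/- mice gave 10188, and 6047 without array weights, 4992 and 6543 within the batches. Leaving out 1 mouse at a time gave 13399 to 15580 calls (6401 to 7334 higher, 6998 to 8246 lower, 1478 to 1668 of at least 1 log2 unit), 3692 to 5355 for the difference between diets and 8921 to 10216 between the deletions. Mice with the same number did not deviate together (correlations of -0.381 to 0.125, 2 of 8 over 0.1, 0 of 8 highest with their own number), and with the replicate number as a block 14989, 4414 and 10192 probes were called. Of the 116 called genes, 115 kept their direction in every setting, C3 being the exception. Many of these genes were chosen for large called changes, so this count does not describe genes at large. Leaving out WT HFD mice 1, 2 and 6, or 1 and 2, was chosen after seeing the data. Dim probes understate changes, and families with near-identical sequence are uncertain. The cause of these shifts was not tested.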

Other observations

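Further lists are given by their counts, beside 47.8% of all genes called (24.1% higher and 23.7% lower). NRF2 targets and metallothioneins, genes of the response to oxidants and metals, had 8 of 18 members higher and 0 lower in Ppara-/- HFD mice. Genes of the cell cycle had 14 of 23 higher and 0 lower, and 5 higher without array weights. Sugar handling had 10 of 26 lower and 3 higher, and 13 lower and 1 higher in Ppara-/- than in Ppara hep-/- HFD mice. Proteasome subunits had 14 of 38 lower and 5 higher. Amino acid catabolism and the urea cycle had 9 of 39 lower and 5 higher, and the core clock had 2 of 19 lower and 1 higher.

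Some single genes stood apart from their lists. Rps13, a protein of the small ribosomal subunit, had a log2 signal of 15.20 to 15.47 (median 15.33) in WT HFD mice and 14.22 to 14.42 (median 14.35) in Ppara-/- HFD mice, a change of -0.95 (standard error 0.04, adjusted p = 7.77e-25 in limma) with -0.01 in Ppara hep-/- mice, although its other probe did not pass. Hbb-b2, a globin gene, was higher by 2.26, with 1 of 7 red blood cell markers higher in all. Cdkn1a, an inhibitor of the cell cycle, was higher by 1.71 on the HFD and 3.77 on the CTRL diet. On the HFD it did not pass within the first wash batch (1.31, adjusted p = 0.229), and its other probe did not pass (0.41, adjusted p = 0.17).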
